A study of Homo sapiens with 12 samples.

Results

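Docetaxel, a taxane that binds microtubules and stops them from shortening, was given to MDA-MB-468 cells at 10 nM, and polyadenylated RNA was collected after 24 h and after 8 h of the same dose. The comparison described here sets the 3 libraries at 24 h against the 3 libraries at 8 h and asks how the transcriptome moved between these hours. MDA-MB-468 is an established triple-negative breast cancer line of basal type, labelled as wild type for genotype, so all groups share the background of that line, which carries a mutant p53. The groups used are docetaxel for 24 h, docetaxel for 8 h and DMSO, the vehicle, with 3 libraries each, lettered A, B and C. Another group of 3 libraries, 5 µM tazemetostat with 5 µM ipatasertib, entered the fit and the filter and is not described. Members are all genes that passed a filter on low counts, 17780 of 58735 entries per library, and the members compared came from 6 of 12 libraries. The docetaxel cells were dosed a day after seeding in 10 cm plates. The labels name no vehicle for the 8 h collection and do not state the hours, plates or serum of the DMSO libraries, so the hours in docetaxel and the age of the culture cannot be told apart. Whether A, B and C were separate cultures is not labelled either. The tests therefore weigh differences against the variation among these libraries, part or all of which may be technical.

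A dividing cell attaches its chromosomes to spindle microtubules through kinetochores, and the spindle assembly checkpoint holds it in mitosis until every kinetochore is attached. Taxanes keep the checkpoint engaged, after which cells may die in mitosis or leave it without dividing properly. Genes of DNA replication are transcribed mainly around the entry into S phase and genes of mitosis mainly in G2, while most histone genes are transcribed in S phase into messages that end in a stem-loop and carry no poly(A) tail.

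Total counts were between 31475791 and 45807059 per library at 24 h, between 30205713 and 36831143 at 8 h and between 30654888 and 41512254 in DMSO. The first principal component of the 6 docetaxel libraries held 48.2% of the variance and separated the times without overlap. Pairs of libraries within a time gave chi-square values of 4.07 to 14.6 per degree of freedom over genes, more than counting noise would give, so all 6 were counted as separate. Transcripts of the mitochondrial genome took 7.53%, 5.002% and 6.62% of the counts at 24 h, against 8.44%, 8.20% and 8.997% at 8 h, and 4.21% ± 0.244 in DMSO (SD, n = 3). The times did not overlap, and an exact two-sided permutation test gave p = 0.1 for the difference of -2.16 percentage points, the smallest p that 3 against 3 libraries can give. At an equal depth of 29820617 counts, 25745, 24884 and 25157 symbols would have had a count at 24 h, against 23561, 23902 and 23810 at 8 h, again without overlap (exact permutation p = 0.1). The part of these shifts in the results below was not tested. Keratins and EPCAM, which mark epithelial cells, were abundant in every library, and of the markers of other cell types the fibroblast genes DCN, LUM and POSTN and the lymphocyte genes CD3E and MS4A1 were at 0 in all of them, while COL1A1, KDR and CD14 were at 11.1 CPM or more throughout.

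Relative to 8 h of docetaxel, 2947 genes were higher at 24 h (16.6% of those tested), 3261 were lower (18.3%) and 11572 did not pass, by edgeR's quasi-likelihood test with a Benjamini-Hochberg adjusted p under 0.05 over all 17780 genes. Most of these differences were small. A change of at least 1.5-fold was reached by 955 of the higher and 431 of the lower genes, and a change of at least 2-fold by 441 (2.48% of all tested) and 98 (0.551%). The 3 libraries at 24 h did not overlap the 3 at 8 h for 418 of the 441 and 86 of the 98, against 7733 of all 17780 genes tested. The 441 and 98 were called on these same libraries, so their separation is no further support. Large rises were mostly of low genes: the median level in the higher group was 0.767 CPM, a count relative to the scaled library total, for genes higher by at least 2-fold and 14.4 CPM over all genes tested. Among genes above 100 CPM, 13.1% were higher and 44.2% lower, whereas between 1 and 5 CPM 18.1% were higher and 7.24% lower. The balance also followed base composition, with 20.6% higher and 10.9% lower in the fifth of genes with the least GC, and 13.0% and 28.1% in the fifth with the most. The balance of directions rests on the scaling. TMM factors scaled the libraries, and with library totals instead the median of all genes moved by 0.13 on the log2 scale, and 5392 genes were higher and 1655 lower. With at least 50 counts asked of a gene, 197 and 44 genes passed with a 2-fold change.

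**Figure D1:**
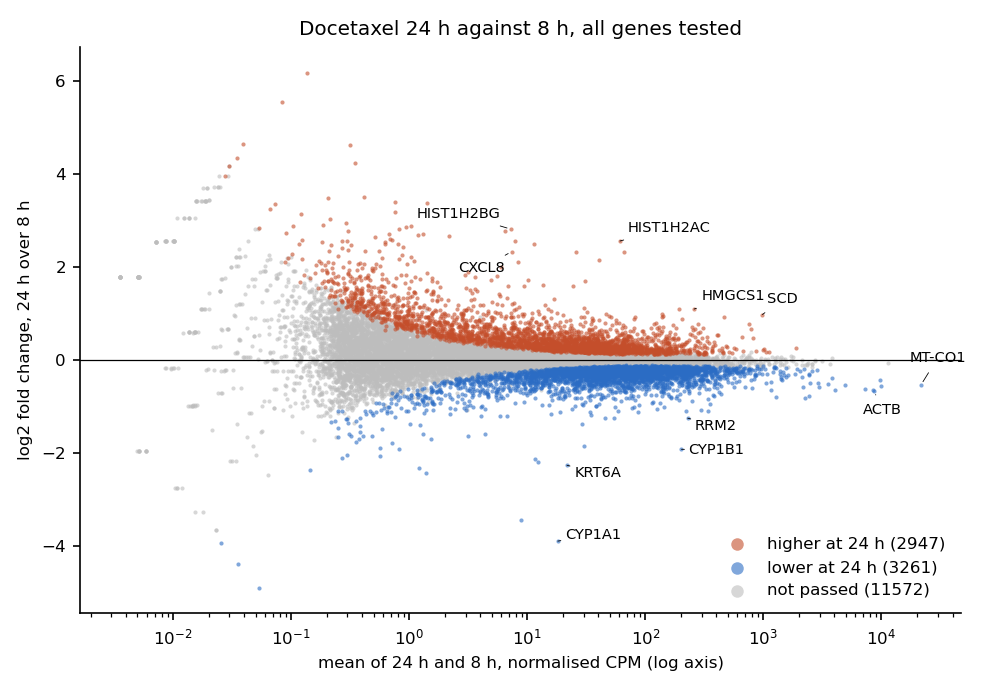
Change between the times for each of the 17780 genes tested, with the mean level in CPM on a log axis across and the log2 fold change of 24 h over 8 h upwards. Colours mark the 2947 genes higher at 24 h, the 3261 lower and the 11572 that did not pass, and the higher genes with the largest changes lie mostly at low levels.

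Values of single genes below are CPM with TMM factors, libraries A, B and C in that order. A log2 fold change of 24 h over 8 h is followed by ± its SE, and adjusted p-values are those of edgeR's quasi-likelihood test after Benjamini-Hochberg adjustment over all genes. Named genes passed this test unless stated. CPM are not corrected for length, so they compare libraries for 1 gene and not genes with each other. Coordinates are on GRCh38, the same build as hg38, from GENCODE release 29.

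Histone genes made up most of the largest rises. Protein-coding genes were ranked by fold change where the higher time averaged 5 CPM or more and the libraries did not overlap. Of the 12 largest rises, 10 were histone genes, and the other two were CXCL8 and ANKRD1. Over the histone list, 43 genes were tested, of which 30 rose, none fell and 13 did not pass, with a median log2 fold change of 1.73 against 0.01 over all genes. The summed level of these 43 was 1191, 1230 and 1245 CPM at 24 h, against 699.7, 643 and 667 CPM at 8 h, and 715, 700.1 and 709 CPM in DMSO. The 24 h sums therefore stood above every 8 h and DMSO library.

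Core histones of the H2B type, which pair with H2A in the nucleosome, had 12 of 13 tested genes higher, with a median of 2.32. HIST1H2BG (chromosome 6, 26215159 to 26216692) had 13.9, 13.2 and 11.1 CPM at 24 h, against 1.51, 2.04 and 1.89 CPM at 8 h, a log2 fold change of 2.81 ± 0.14 (adjusted p = 6.77e-13). HIST1H2BK (chromosome 6, 27146418 to 27146798) had 106, 113 and 112 CPM at 24 h, against 24.2, 20.8 and 21.4 CPM at 8 h, a change of 2.32 ± 0.07. In DMSO HIST1H2BG averaged 2.47 ± 0.2196 CPM and HIST1H2BK 38.7 ± 2.17 CPM (SD, n = 3), so the 24 h libraries were above DMSO too. Of the H2A genes 4 of 7 rose, led by HIST1H2AC (chromosome 6, 26124145 to 26139116), the gene with the smallest adjusted p among histones (5.68e-18). Its level was 102, 109.6 and 102 CPM at 24 h, against 17.7, 16.8 and 18.8 CPM at 8 h, a change of 2.56 ± 0.07, and the 8 h level was also below the 45.5 ± 1.02 CPM of DMSO. Of the H3 and H4 genes 10 of 17 rose, among them HIST1H4H at 2.11 ± 0.13 and HIST1H3H at 1.81 ± 0.14.

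Linker histones, which bind the DNA between nucleosomes, rose in 4 of 6 genes. HIST1H1C (chromosome 6, 26055787 to 26056428) had 64.8, 62.3 and 71.9 CPM at 24 h, against 14.1, 15.8 and 15.2 CPM at 8 h, a change of 2.15 ± 0.07 (adjusted p = 1.13e-16), and its 8 h level stood at the 15.1 ± 0.0919 CPM of DMSO, from which it differed by -0.01. The replacement linker histone H1F0, chosen after its values were seen, is made outside S phase from a polyadenylated message, and rose by 0.52 ± 0.05. Among 6 factors that make or process histone messages, none rose and LSM11, a subunit of the U7 particle, fell by 0.52 on the log2 scale, 1 of 2 falls on the whole list when 24 h library B was left out. SLBP, which binds the stem-loop, had 118, 126 and 125 CPM at 24 h, against 121, 119.9 and 119 CPM at 8 h and did not pass (adjusted p = 0.618), though it did under library totals (0.17, adjusted p = 0.00697). The libraries were selected for poly(A), so the values cover only histone messages that carry a tail, and copies within the family are near-identical in sequence, which leaves the single genes less certain than their sum. In bulk RNA, more cells of a kind and more RNA per cell cannot be told apart.

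**Figure D2:**
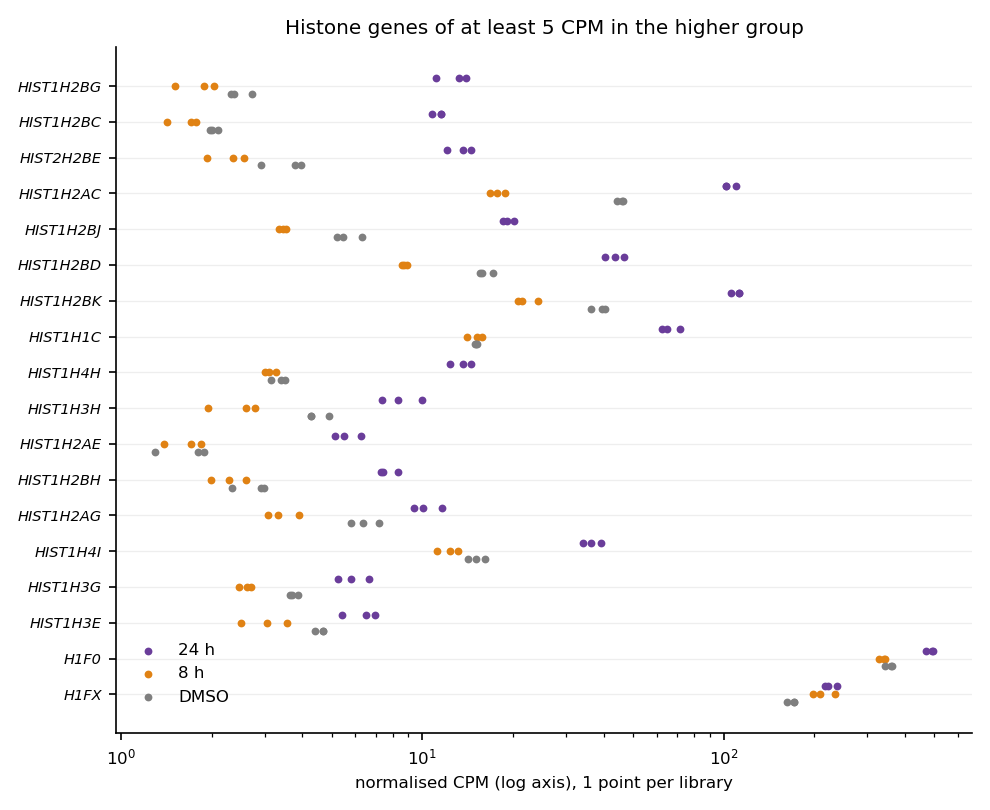
Level of 18 histone genes that reached a mean of 5 CPM at either time, on a log axis in CPM, with 1 point per library and, for each gene, 24 h drawn above 8 h and 8 h above DMSO. H1FX overlaps between the times, and for the other genes the 24 h points lie to the high side of the 8 h points, as for HIST1H2AC at 102 to 109.6 CPM against 16.8 to 18.8 CPM.

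The promoters of the histone genes that carried this rise are given because, of the 4 motifs searched, the CCAAT box was in the largest share of them. The sequences are RefSeq's, on GRCh38.p14, from 250 bases before the annotated start to 50 after it, read 5′ to 3′ on the gene's strand, with CCAAT or its reverse complement ATTGG in capitals. HIST1H2BK (RefSeq symbol H2BC12, chr6:27146806-27147105, minus strand) held 6 and HIST1H1C (H1-2, chr6:26056421-26056720, minus strand) held 1.
HIST1H2BK: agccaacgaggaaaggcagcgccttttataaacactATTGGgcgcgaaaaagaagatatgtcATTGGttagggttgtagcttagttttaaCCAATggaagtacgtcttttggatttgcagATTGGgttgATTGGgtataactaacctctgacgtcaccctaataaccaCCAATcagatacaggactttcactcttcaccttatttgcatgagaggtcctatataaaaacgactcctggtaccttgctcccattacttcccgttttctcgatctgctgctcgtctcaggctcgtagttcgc
HIST1H1C: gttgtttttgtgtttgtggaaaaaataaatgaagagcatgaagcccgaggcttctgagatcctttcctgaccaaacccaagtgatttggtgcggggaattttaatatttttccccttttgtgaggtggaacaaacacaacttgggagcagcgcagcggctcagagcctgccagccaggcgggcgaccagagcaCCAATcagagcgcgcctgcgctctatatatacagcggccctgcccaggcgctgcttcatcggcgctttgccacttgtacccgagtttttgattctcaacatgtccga
Of 39 promoters matched to 36 of the 43 histone genes, 79.5% held CCAAT on either strand, against 34.6% of all 35116 promoters of that length. A match describes letters in the window and does not show a bound factor.

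Genes of mitosis were lower at 24 h. Of 40 tested kinases, cyclins and factors of mitotic exit none rose and 28 fell, with a median of -0.30. Their summed level was 4880, 5101 and 4997 CPM at 24 h, against 6613, 6305 and 6404 CPM at 8 h, and 4421, 4516 and 4496 CPM in DMSO. The 24 h sums thus lay below every 8 h library and above every DMSO library. One member rose when 8 h library A was left out.

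AURKB (chromosome 17, 8204733 to 8210600), the kinase of the chromosomal passenger complex, had 57.96, 60.2 and 62.3 CPM at 24 h, against 128, 109.7 and 115 CPM at 8 h, a change of -0.96 ± 0.06 (adjusted p = 1.82e-11). CCNF, a cyclin that targets proteins for degradation, fell by 1.01 ± 0.06 on the log2 scale, CDK1, the mitotic cyclin-dependent kinase, by 0.86 ± 0.05, ESPL1, the separase that opens cohesin, by 0.81 ± 0.05, and the polo-like kinase PLK1 by 0.56 ± 0.05. Smaller falls were seen for CDC20, which activates the anaphase-promoting complex (0.29 ± 0.05), AURKA, the centrosomal kinase (0.31 ± 0.05), and BUB1, a checkpoint kinase (0.40 ± 0.05). CCNB1 (chromosome 5, 69167010 to 69178245), cyclin B1, had 257, 289.7 and 273 CPM at 24 h, against 281, 263 and 275 CPM at 8 h, and 184, 178 and 183 CPM in DMSO. Its times overlapped and it did not pass (adjusted p = 1.0), while 24 h and 8 h were each above DMSO by 0.59 on the log2 scale. Under library totals CCNB1 passed as higher at 24 h (0.13, adjusted p = 0.0297). CCNB2, cyclin B2, chosen after its values were seen, averaged 131 ± 4.499 CPM at 24 h and 127 ± 8.02 CPM at 8 h (SD, n = 3 each) and did not pass.

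Kinetochore and centromere genes showed the same direction, with none of 37 higher and 32 lower (median -0.36). By role, 8 of 9 checkpoint genes, 10 of 13 kinetochore genes and 14 of 15 centromere and passenger genes fell. SPC24 had 36.6, 34.9 and 39.02 CPM at 24 h, against 76.96, 69.7 and 75.7 CPM at 8 h, a change of -1.01 ± 0.06, and SPC25, which joins it in the NDC80 complex that grips microtubules, fell by 1.004 ± 0.07. ZWINT, a kinetochore scaffold, fell by 0.93 ± 0.05, INCENP, the scaffold of the passenger complex, by 0.91 ± 0.06, and the checkpoint protein MAD2L1 by 0.40 ± 0.06. Spindle kinesins, the motors that build and move the spindle, fell in 10 of 12 genes with none higher, against 2 lower and 1 higher of 10 transport kinesins. KIF11, which pushes spindle poles apart, had 64.2, 63.01 and 63.4 CPM at 24 h, against 103, 110.4 and 114 CPM at 8 h (adjusted p = 5.14e-11), and the minus-end motor KIFC1 fell by 0.77 ± 0.05. The summed kinetochore level was 2348 to 2458 CPM at 24 h and 3253 to 3353 CPM at 8 h, without overlap, and 2315 to 2340.4 CPM in DMSO.

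Many promoters of G2 and mitotic genes hold a CCAAT box and, near the start, the cell cycle homology region, for which the letters TTTGAA were searched. The promoters of a gene that fell modestly, 1 that did not pass and 1 that fell further are printed with both motifs, on either strand, in capitals (RefSeq, GRCh38.p14). CDC20 (chr1:43358731-43359030, plus strand) held 2 TTTGAA and 2 CCAAT, CCNB2 (chr15:59104896-59105195, plus strand) 1 and 4, and CDCA8 (chr1:37692266-37692565, plus strand), borealin of the passenger complex, 1 and 3. In CDCA8 the TTTGAA overlaps an ATTGG.
CDC20: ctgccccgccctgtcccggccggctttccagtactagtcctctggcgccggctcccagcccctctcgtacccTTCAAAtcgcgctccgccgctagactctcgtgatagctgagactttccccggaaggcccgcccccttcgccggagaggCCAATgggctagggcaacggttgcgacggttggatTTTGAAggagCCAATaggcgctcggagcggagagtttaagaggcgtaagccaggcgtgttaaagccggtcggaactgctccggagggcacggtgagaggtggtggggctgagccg
CCNB2: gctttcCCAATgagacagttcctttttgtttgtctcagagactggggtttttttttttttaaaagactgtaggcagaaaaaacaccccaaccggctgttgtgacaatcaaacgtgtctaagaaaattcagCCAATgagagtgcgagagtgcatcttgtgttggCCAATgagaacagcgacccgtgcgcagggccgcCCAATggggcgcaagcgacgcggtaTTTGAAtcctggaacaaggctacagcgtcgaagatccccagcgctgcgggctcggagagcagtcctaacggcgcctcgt
CDCA8: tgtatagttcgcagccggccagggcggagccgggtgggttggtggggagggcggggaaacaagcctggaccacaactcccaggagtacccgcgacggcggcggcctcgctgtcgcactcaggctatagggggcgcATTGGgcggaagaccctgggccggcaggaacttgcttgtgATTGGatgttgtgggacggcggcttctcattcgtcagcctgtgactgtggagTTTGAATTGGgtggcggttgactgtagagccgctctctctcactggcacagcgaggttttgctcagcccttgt
TTTGAA was in 44.9% of 49 promoters of the mitotic list and 45.7% of 35 of the kinetochore list, against 3.85% of 52 promoters of the replication list and 15.2% of all promoters, and it was also in 41.03% of the 39 histone promoters, whose genes mostly rose. CCAAT was in 63.3%, 65.7% and 51.9% of those lists' promoters.

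Replication genes were lower nearly throughout. Of 43 tested none rose and 40 fell, with a median of -0.55, including all 20 polymerase and clamp genes, all 6 of nucleotide supply and 14 of 17 of the helicase and its licensing. RRM2 (chromosome 2, 10120698 to 10131419), the regulated subunit of ribonucleotide reductase, had 134, 135 and 136 CPM at 24 h, against 329.6, 308 and 330.0 CPM at 8 h, and 173, 179 and 176 CPM in DMSO. Its 24 h libraries lay below both other groups, with a change from 8 h of -1.26 ± 0.05 (adjusted p = 1.75e-14). CDC45, which completes the replicative helicase, had 34.9, 39.3 and 37.01 CPM at 24 h, against 80.7, 77.9 and 79.04 CPM at 8 h, a change of -1.10 ± 0.05. MCM5, a helicase subunit, fell by 0.79 ± 0.05, the ligase LIG1 by 0.77 ± 0.05, and the origin factors CDT1 and CDC6 by 0.47 ± 0.06 and 0.43 ± 0.05. GMNN, the geminin that restrains CDT1, stood at -0.14 ± 0.06 and did not pass (adjusted p = 0.0595), though it did without 24 h library B or 8 h library B. It also passed as lower with the size factors of DESeq2 or of the authors and in DESeq2's own test. The same held with a replicate block and with a smooth trend on GC removed. The summed level of the list was 3895 to 3990 CPM at 24 h, 5772 to 5984 CPM at 8 h and 4658 to 4696 CPM in DMSO, so the 24 h libraries were the lowest and the 8 h libraries the highest.

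Recombination and Fanconi repair genes fell in 15 of 20 with none higher (median -0.44). RAD54L, a motor of strand exchange, had 22.1, 21.04 and 20.8 CPM at 24 h, against 37.7, 42.1 and 39.6 CPM at 8 h, and EXO1, a resection nuclease, fell by 0.80 ± 0.06. TOP2A, the topoisomerase that untangles chromatids, fell by 1.08 ± 0.05 and the proliferation marker MKI67 by 0.89 ± 0.08. Among 28 E2F factors and regulators of the G1 to S step 4 rose and 15 fell. E2F8, a late repressor, fell by 0.82 ± 0.08, E2F2 by 0.62 ± 0.05 and cyclin CCNE1 by 0.55 ± 0.06, whereas CCNE2 did not pass. CDKN2B (chromosome 9, 22002903 to 22009363), the p15 inhibitor of CDK4 and CDK6, had 67.7, 65.8 and 65.98 CPM at 24 h, against 33.9, 37.5 and 33.98 CPM at 8 h, a rise of 0.92 ± 0.05 (adjusted p = 1.08e-11). EZH2, the methyltransferase that tazemetostat targets, fell by 0.37 ± 0.05, and AKT1, a target of ipatasertib, by 0.48 ± 0.05, both with docetaxel alone.

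**Figure D3:**
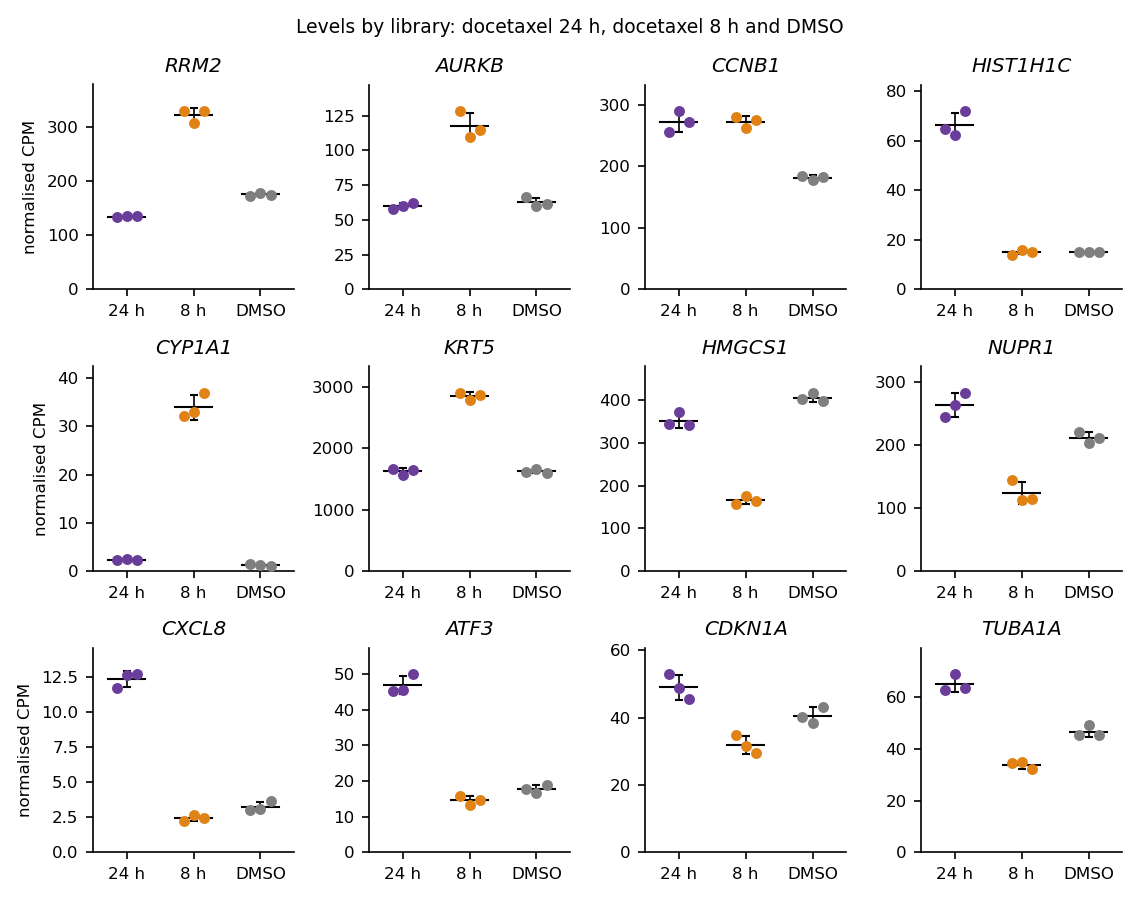
Level in CPM of 12 genes in each library, with 24 h, 8 h and DMSO from left to right, points for libraries A, B and C, a bar at the mean and error bars of 1 SD (n = 3). RRM2 and AURKB sit lower at 24 h than at 8 h, CCNB1 sits at the same height at both times and above DMSO, and CYP1A1 is high at 8 h alone among the 3 groups.

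The genes of docetaxel's own target split. Of 17 tubulin genes 5 rose and 6 fell. TUBA1A had 62.8, 68.7 and 63.4 CPM at 24 h, against 34.6, 34.8 and 32.1 CPM at 8 h, a rise of 0.94 ± 0.06, and TUBB2A, a beta tubulin, rose by 0.57 ± 0.06. TUBB had 2365, 2323 and 2423 CPM at 24 h, against 3789, 3268 and 3534 CPM at 8 h, a fall of 0.57 ± 0.06 on the log2 scale, and TUBA1C fell by 0.69 ± 0.05. The neuronal beta tubulin TUBB3 had 1.65, 1.08 and 1.46 CPM at 24 h, against 0.681, 1.39 and 0.927 CPM at 8 h and did not pass (adjusted p = 0.175), though it did without 8 h library B. The summed tubulin level was 4233 to 4299 CPM at 24 h and 5557 to 6185 CPM at 8 h, and 3964 to 4143 CPM in DMSO. Tubulin genes share long stretches of sequence and TUBA1A overlaps TUBA1C in the annotation, so reads may have been divided between them in ways that depend on the counting. Of 32 microtubule-associated proteins 4 rose, 2 without 24 h library B or without 8 h library A, and 10 fell, 6 without 24 h library C. MAP1B, which stabilises microtubules in neurons, rose by 0.90 ± 0.12, the polymerase CKAP5 fell by 0.45 ± 0.05, and MAP4 did not pass, though it was higher under library totals (0.16, adjusted p = 0.0082). MAP4 was also higher with a smooth trend of fold change on abundance removed (0.13, adjusted p = 0.0267). ABCB1, the efflux pump P-glycoprotein, which exports taxanes, had 2.38, 2.77 and 2.18 CPM at 24 h, against 0.918, 1.02 and 1.11 CPM at 8 h (270 and 95 counts in all), a rise of 1.26 ± 0.18 (adjusted p = 1.03e-05). The times did not overlap, and DMSO averaged 1.86 ± 0.247 CPM. ABCC3 and ABCC4, related exporters, fell by 0.37 ± 0.07 and 0.35 ± 0.10, where ABCC4 did not pass under library totals (-0.22, adjusted p = 0.0809). The other 5 tested transporters did not pass. Without 24 h library B or without 8 h library C, 2 of the 8 tested transporters were higher. The listed enzymes of docetaxel breakdown, CYP3A4, CYP3A5 and CYP2C8, were below the count filter and were not tested.

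Genes of arrest and death rose in part. Among 29 p53 target genes 10 rose and 4 fell, in a line whose p53 is mutant. These were 34.5% and 13.8%, against 16.6% and 18.3% of all genes, and the list's median log2 fold change was 0.06. By role, 7 of 15 genes of arrest and repair rose and 2 fell, with a median of 0.22. Of 14 genes of death and metabolism 3 rose (21.4%) and 2 fell (14.3%), with a median of 0.01. CDKN1A (chromosome 6, 36676460 to 36687339), the p21 inhibitor of cyclin-dependent kinases, had 52.9, 48.7 and 45.6 CPM at 24 h, against 34.8, 31.7 and 29.5 CPM at 8 h, a rise of 0.61 ± 0.07 (adjusted p = 1.98e-07). GADD45A, a stress-induced growth arrest gene, rose by 0.65 ± 0.05 and SESN2, a stress-induced inhibitor of mTORC1, by 0.56 ± 0.06. MDM2, the ligase that degrades p53, had 48.97, 50.4 and 48.7 CPM at 24 h, against 50.5, 50.98 and 53.7 CPM at 8 h and did not pass. BBC3, which encodes PUMA, had 18.9, 17.7 and 17.03 CPM at 24 h, against 10.3, 9.02 and 9.06 CPM at 8 h, a rise of 0.91 ± 0.08. Of 7 BH3-only genes on the BCL2 family list, which trigger the mitochondrial step of apoptosis, 5 rose and none fell. HRK rose by 0.67 ± 0.09, BCL2L11 (BIM) by 0.49 ± 0.06, PMAIP1 (NOXA) by 0.49 ± 0.07 and BMF by 0.43 ± 0.09. These rises are from 8 h and not all stood above the vehicle. On the log2 scale 24 h over DMSO was 0.07 for HRK, 0.003 for BCL2L11, 0.54 for PMAIP1, -0.24 for BMF and 0.74 for BBC3. Of the 8 multidomain members 2 rose and 2 fell, and BCL2L1 (BCL-XL) did not pass (0.14 ± 0.06, adjusted p = 0.0799), though it did without 24 h library B or 8 h library A and under library totals (0.28, adjusted p = 0.000554). BCL2L1 also passed as higher with at least 50 counts asked of a gene, and with a smooth trend on GC or on abundance removed. Among 20 death receptors and caspases 4 rose and 1 fell. The falls were 2 without 24 h library A or B or without 8 h library B, and 3 without 8 h library A. The share that rose lay near the 16.6% of all genes, and the list's median log2 fold change was -0.0082, so this list as a whole did not rise. The initiator caspase CASP10 and the ligand TNFSF10 (TRAIL) rose by 0.51 ± 0.08 and 0.55 ± 0.09. CASP10 at 24 h stood at -0.24 over DMSO, and the median of its list over DMSO was 0.08 at 24 h.

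The largest fall among genes of at least 5 CPM was that of CYP1A1 (chromosome 15, 74719542 to 74725610), the oxidase that the aryl hydrocarbon receptor induces. It had 2.26, 2.403 and 2.18 CPM at 24 h, against 32.2, 32.9 and 37.01 CPM at 8 h, and 1.45, 1.21 and 1.09 CPM in DMSO. The 8 h libraries were far above both other groups, with a change of 24 h over 8 h of -3.90 ± 0.10 (adjusted p = 3.23e-18), and 24 h over DMSO stood at 0.84. CYP1B1 (chromosome 2, 38066973 to 38109902), a related oxidase, had 80.4, 85.2 and 87.1 CPM at 24 h, against 293, 333 and 336 CPM at 8 h, and 102, 113 and 103 CPM in DMSO, a change of -1.93 ± 0.06. Its 24 h libraries were below those of DMSO as well. Of 7 tested target genes of the receptor 6 fell and 1 rose. ALDH3A1, an aldehyde dehydrogenase, fell by 0.97 ± 0.15, while TIPARP, an ADP-ribosyltransferase that feeds back on the receptor, had 21.9, 21.9 and 21.6 CPM at 24 h, against 12.6, 13.3 and 12.7 CPM at 8 h and rose by 0.76 ± 0.07. The receptor AHR, its partner ARNT and its repressor AHRR did not pass, AHRR with 5.26, 6.93 and 5.599 CPM at 24 h, against 5.095, 5.01 and 6.28 CPM at 8 h.

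The receptor's response elements centre on GCGTG, which is why the CYP1A1 promoter is shown, with that motif in capitals (RefSeq, GRCh38.p14, chr15:74725479-74725778, minus strand). It held 1 copy, at -57 from the annotated start, and the enhancer of this gene lies further upstream than the window reaches.
CYP1A1: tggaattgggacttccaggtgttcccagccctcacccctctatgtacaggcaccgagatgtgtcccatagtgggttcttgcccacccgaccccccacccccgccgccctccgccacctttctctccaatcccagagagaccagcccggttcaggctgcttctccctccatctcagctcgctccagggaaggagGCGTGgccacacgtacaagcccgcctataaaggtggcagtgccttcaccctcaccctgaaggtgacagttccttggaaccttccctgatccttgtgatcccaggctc
GCGTG was in 66.7% of 12 promoters matched to 8 of the 10 genes of the list, against 36.5% of all promoters. It was not particular to them, with 85.7% of 28 promoters of the sterol list and 53.8% of the 52 replication promoters holding it.

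Basal and wound keratins fell. Of 21 tested genes 14 fell and 3 rose, with a median of -0.38, and the count of rises fell to 1 without 24 h library B or C or without 8 h library B or C. KRT6A (chromosome 12, 52487174 to 52493257), a keratin of wounded and proliferating epithelium, had 8.42, 5.55 and 8.27 CPM at 24 h, against 36.6, 36.5 and 34.9 CPM at 8 h, and 3.87, 5.49 and 5.53 CPM in DMSO, a change of -2.27 ± 0.16 (adjusted p = 1.65e-10). KRT6B, its near-identical neighbour, fell by 1.11 ± 0.06, and KRT75, a companion keratin of hair follicles, by 1.60 ± 0.15. KRT5, the basal keratin, had 1664, 1560.0 and 1647 CPM at 24 h, against 2903, 2783 and 2863 CPM at 8 h, and 1606, 1661 and 1603 CPM in DMSO. Its 24 h and DMSO libraries overlapped, and both lay below 8 h. KRT17 had 910.0, 894 and 991 CPM at 24 h, against 1709.6, 1550.0 and 1639.8 CPM at 8 h, and 567, 564 and 565 CPM in DMSO, so that it was lower than at 8 h by 0.81 ± 0.05 and still above DMSO at 24 h by 0.72. Among 21 genes of epidermal differentiation 6 fell and 1 rose, 2 without 8 h library C, with S100A7 at -0.82 ± 0.09, the protease inhibitor PI3 at -0.83 ± 0.07 and KRT10 at -0.73 ± 0.06.

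Other large falls were those of IGFL1, a secreted factor of the IGF-like family, at -2.14 ± 0.10, and OLFML3, a secreted olfactomedin-like protein, at -1.86 ± 0.07. IGFL1 had 4.299, 4.35 and 4.22 CPM at 24 h, against 18.7, 18.01 and 19.8 CPM at 8 h, and 2.395, 2.25 and 2.07 CPM in DMSO. MMP7, the epithelial metalloprotease matrilysin, fell by 1.39 ± 0.07, SLC29A1, the nucleoside transporter ENT1, by 1.26 ± 0.07, VIPR1, a receptor for vasoactive intestinal peptide, by 1.26 ± 0.06, POU2F3, the tuft cell factor, by 1.22 ± 0.10, and FXYD3, a regulator of the sodium pump, by 1.20 ± 0.11. The times did not overlap for any of the 12 largest falls, as the rule asked. BOLA2B and EIF3CL, copies of near-identical genes, fell by 3.45 and 2.20 on the log2 scale but overlapped between the times, so the ranking left them out.

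Luminal markers did not take a side, with 8 of 21 higher, 5 without 24 h library A, and 8 lower. GATA3, the luminal transcription factor, rose by 0.44 ± 0.05 and XBP1 by 0.45 ± 0.05, while the keratins KRT19 and KRT7 fell by 0.40 ± 0.06 and 0.34 ± 0.06. The 10 markers by which the line's epithelial identity was checked summed to 15171 to 15435 CPM at 24 h, against 19049 to 19957 CPM at 8 h, and 15380 to 16083 CPM in DMSO. EPCAM had 396, 398 and 419 CPM at 24 h and 466, 452 and 461 CPM at 8 h. Of the markers of other cells, 10 fibroblast markers summed to 19.2 to 22.5 CPM at 24 h, 14.04 to 16.01 CPM at 8 h and 24.5 to 27.01 CPM in DMSO, 11 immune markers to 34.4 to 36.6, 26.02 to 27.8 and 54.7 to 57.2 CPM, and 8 endothelial markers to 22.2 to 23.6, 22.8 to 27.2 and 30.6 to 32.9 CPM in the same order. Most of the fibroblast sum was COL1A1, a fibrillar collagen, which had 18.9, 17.4 and 16.3 CPM at 24 h, against 12.2, 13.4 and 12.2 CPM at 8 h, and rose by 0.47 ± 0.08. Of the 5 tested endothelial markers 3 rose and 1 fell, while KDR, the largest of them at 13.7, 13.3 and 12.3 CPM at 24 h, against 11.1, 16.8 and 14.05 CPM at 8 h, did not pass. The rises, of VWF, TEK and CDH5, were at 0.883 CPM or less in every docetaxel library. Leaving out 1 library gave as few as 1 rise and 0 falls. Nearly all of the immune sum was CD14, an innate receptor, which had 31.7, 33.6 and 32.8 CPM at 24 h, against 25.1, 23.6 and 25.03 CPM at 8 h and rose by 0.41 ± 0.07. The part of these markers in the results was not tested.

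Genes of sterol synthesis rose almost throughout. SREBP2 drives these genes when the endoplasmic reticulum runs low in cholesterol. Of 29 tested genes of synthesis, uptake and their control 24 rose and 1 fell, with a median of 0.60, and among the 20 enzymes of synthesis 19 rose. HMGCS1 (chromosome 5, 43289395 to 43313512), the synthase at the head of the mevalonate pathway, had 344, 372 and 342 CPM at 24 h, against 157, 175 and 164 CPM at 8 h, and 404, 418 and 399 CPM in DMSO. The 24 h libraries were above 8 h and below DMSO, with a change of 1.09 ± 0.05 (adjusted p = 2.78e-13). MVD, the mevalonate diphosphate decarboxylase, had 641, 582 and 614 CPM at 24 h, against 351, 311 and 309.6 CPM at 8 h, a rise of 0.92 ± 0.06. DHCR7, which makes cholesterol from its last precursor, rose by 0.78 ± 0.05. The gene that fell was SCAP, the sensor that escorts SREBP, at -0.28, chosen after its values were seen. The median of the list over DMSO was -0.11 at 24 h and -0.54 at 8 h, where both times are set against the same DMSO libraries.

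Genes of sterol efflux rose as well, in 5 of 9, with 1 lower that did not pass without 24 h library C or without 8 h library B or C. ABCA1, which exports cholesterol, had 1.77, 1.29 and 1.64 CPM at 24 h, against 0.533, 0.742 and 0.749 CPM at 8 h, a rise of 1.23 ± 0.25, its partner ABCG1 rose by 0.80 ± 0.17 and MYLIP, which degrades lipoprotein receptors, by 0.52 ± 0.07. Of 21 fatty acid genes 10 rose and 5 fell. SCD (chromosome 10, 100347124 to 100364834), the desaturase of saturated fatty acids, had 1296, 1314 and 1293 CPM at 24 h, against 637, 689 and 661 CPM at 8 h, and 1759, 1845 and 1816 CPM in DMSO, a change of 0.97 ± 0.05. ACSL4 and ACSL3, which activate fatty acids, rose by 0.56 ± 0.06 and 0.44 ± 0.05 and ACSS2, which activates acetate, by 0.50 ± 0.05. FASN, the fatty acid synthase, had 1380.4, 1209 and 1166 CPM at 24 h, against 1189, 1310.2 and 1281 CPM at 8 h, overlapping between the times, and did not pass (-0.01 ± 0.06, adjusted p = 0.931).

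Genes of the ATF4 programme, which cells switch on when amino acids run short or translation initiation is slowed, rose in 24 of 27, with 1 lower (median 0.47). The 1 lower gene, ATF5 at -0.17 and chosen after its values were seen, did not pass without 24 h library A or C or without 8 h library A or C. NUPR1 (chromosome 16, 28532708 to 28539174), a stress-induced chromatin protein, had 245, 264 and 284 CPM at 24 h, against 144, 114 and 115 CPM at 8 h, a rise of 1.09 ± 0.07 (adjusted p = 1.36e-10), and 221, 204 and 211 CPM in DMSO. CTH, which makes cysteine, had 19.3, 20.2 and 21.3 CPM at 24 h, against 10.5, 8.404 and 9.66 CPM at 8 h and rose by 1.09 ± 0.08, the folate enzyme ALDH1L2 by 0.86 ± 0.06, and the mitochondrial carboxykinase PCK2 by 0.68 ± 0.05. The median of the list over DMSO was -0.09 at 24 h and -0.57 at 8 h. Of 20 cytosolic aminoacyl-tRNA synthetases 9 rose and 6 fell, with WARS, for tryptophan, at 0.59 ± 0.05 and FARSA, for phenylalanine, at -0.52 ± 0.05.

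The unfolded protein response of the endoplasmic reticulum did not move with it: 3 of 22 chaperones and degradation factors rose and 9 fell. Other scalings, filters or fits gave 3 to 7 rises and 3 to 11 falls. HERPUD1, which takes part in degradation at the endoplasmic reticulum, rose by 0.69 ± 0.05 and the cochaperone DNAJB9 by 0.58 ± 0.08, whereas the disulfide isomerase PDIA4 and the chaperone partner SDF2L1 fell by 0.39 ± 0.04 and 0.47 ± 0.06. Of 23 heat shock proteins 5 rose and 11 fell, with 5 to 7 rises and 5 to 12 falls under other scalings, filters or fits. HSPA1A and HSPA1B, near-identical inducible chaperones, fell by 0.59 ± 0.06 and 0.39 ± 0.06, and DNAJB4 rose by 0.70 ± 0.08. HSPB8, a small heat shock protein, had 69 counts over the 24 h libraries and 2 over the 8 h libraries, a depth-adjusted ratio of 28.96 with a 95% counting interval of 7.72 to 243.9, which covers counting error only.

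**Figure D4:**
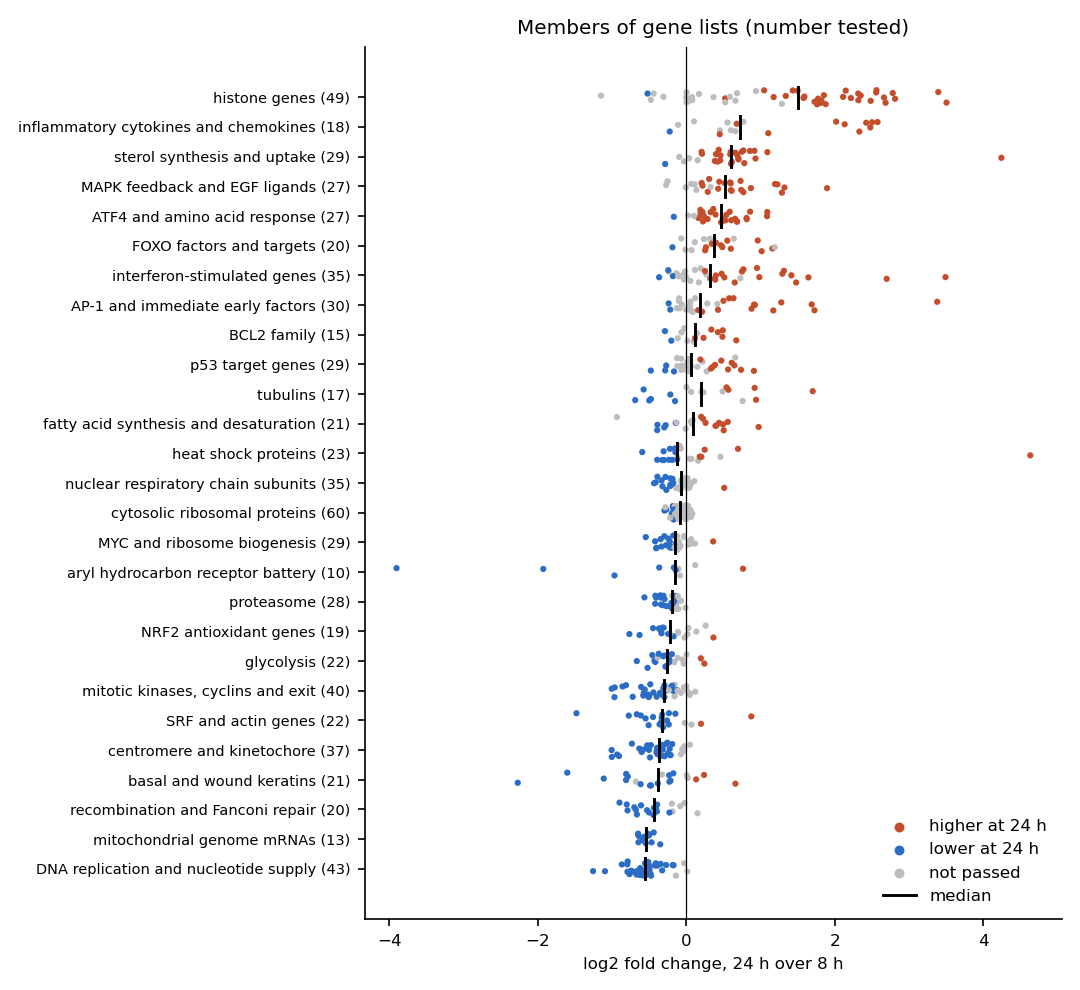
Log2 fold change of 24 h over 8 h for each tested member of 27 gene lists, with 1 point per gene and a bar at the list's median. Histone genes, here with the 6 factors that make or process their messages, lie furthest to the high side, with sterol synthesis, MAPK feedback and ATF4 genes at medians of 0.60, 0.52 and 0.47, and replication and mitochondrial genome genes furthest to the low side at -0.55.

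Feedback genes of MAPK signalling, which receptors such as those of the EGF family switch on and which damp the pathway in turn, rose in 17 of 20, with none lower. DUSP10, a phosphatase of stress-activated kinases, had 11.6, 10.3 and 10.8 CPM at 24 h, against 5.07, 4.91 and 3.92 CPM at 8 h, a rise of 1.23 ± 0.10, and DUSP4, a nuclear phosphatase of ERK, had 109, 101 and 104 CPM at 24 h, against 57.9, 56.4 and 56.8 CPM at 8 h, a rise of 0.87 ± 0.05 (adjusted p = 5.47e-12). PHLDA1 rose by 0.60 ± 0.05. Of 7 tested EGF family ligands 3 rose and none fell. HBEGF had 9.50, 10.01 and 9.15 CPM at 24 h, against 3.58, 4.14 and 3.71 CPM at 8 h, a rise of 1.32 ± 0.10, and AREG, chosen after its values were seen, averaged 4.97 ± 0.546 CPM at 24 h and 1.33 ± 0.372 CPM at 8 h (SD, n = 3 each), a rise of 1.90 ± 0.22. Over both roles, 20 of 27 were higher, and the median over DMSO was 0.12 at 24 h and -0.30 at 8 h.

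Immediate early genes rose in 14 of 30 and fell in 2, 1 without 24 h library B or without 8 h library B or C. ATF3 (chromosome 1, 212565334 to 212620777), a stress-induced factor, had 45.4, 45.5 and 49.96 CPM at 24 h, against 15.8, 13.2 and 14.7 CPM at 8 h, and 17.8, 16.7 and 18.9 CPM in DMSO, a rise of 1.69 ± 0.08 (adjusted p = 3.12e-13). The nuclear receptor NR4A2 had 16.1, 13.6 and 16.7 CPM at 24 h, against 4.33, 5.32 and 4.39 CPM at 8 h, a rise of 1.73 ± 0.12. JUN, the AP-1 subunit, rose by 0.88 ± 0.06 and MAFF, a small MAF factor, by 0.91 ± 0.06. FOS and EGR1, the classic serum-induced genes, did not pass. FOS had 131, 131 and 142 CPM at 24 h, against 150.2, 141 and 97.4 CPM at 8 h and EGR1 had 219.6, 205 and 216 CPM at 24 h, against 257, 240.1 and 144 CPM at 8 h, with 8 h library C lowest for both, so the times overlapped. FOXO genes, which are active when AKT signalling is low, rose in 11 of 20 and fell in 1, which did not pass without 24 h library B or C or without 8 h library B or C. PIK3IP1, an inhibitor of phosphoinositide 3-kinase, had 6.95, 7.796 and 7.67 CPM at 24 h, against 3.47, 3.801 and 3.85 CPM at 8 h, a rise of 1.02 ± 0.09, KLHL24 rose by 0.96 ± 0.06, CITED2 by 0.55 ± 0.05 and FOXO3 itself by 0.49 ± 0.06. Their median over DMSO was -0.04 at 24 h and -0.45 at 8 h.

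Cytokine genes rose from low levels. Of 18 tested, 10 were higher and 1 lower, with a median of 0.73, and 6 of 10 chemokines were among the higher. CXCL8 (chromosome 4, 73740506 to 73743716), interleukin 8, had 11.7, 12.7 and 12.7 CPM at 24 h, against 2.25, 2.69 and 2.42 CPM at 8 h, and 3.02, 3.11 and 3.66 CPM in DMSO, a rise of 2.33 ± 0.11 (adjusted p = 3.12e-13). The related neutrophil chemokines CXCL1, CXCL2 and CXCL3 were under 3 CPM in every docetaxel library and rose by 2.503 ± 0.36, 2.13 ± 0.26 and 2.42 ± 0.30. IL6 had 0.541, 0.616 and 0.495 CPM at 24 h, against 0.0889, 0.185 and 0 CPM at 8 h, a rise of 2.48 ± 0.56. With 50 counts asked of a gene, 5 cytokine genes were higher. NF-kB subunits and feedback genes rose in 4 of 15, or 2 without 24 h library B, and none fell. The share that rose was 26.7%, against 16.6% of all genes, and the list's median log2 fold change was 0.08. NFKBIA and RELB, which were among the rises, did not pass in several runs that left out 1 library. TNFAIP3 (A20), which damps NF-kB signalling, had 5.32, 5.30 and 5.28 CPM at 24 h, against 1.22, 2.01 and 2.35 CPM at 8 h, a rise of 1.53 ± 0.18, and the adhesion receptor ICAM1 rose by 0.53 ± 0.05.

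Of 35 interferon-stimulated genes 18 rose and 3 fell (median 0.32), with 16 of 26 effectors higher and 2 of 9 sensors and factors. IFIT1, which binds foreign RNA ends, had 7.31, 7.73 and 9.95 CPM at 24 h, against 2.93, 2.94 and 3.601 CPM at 8 h, a rise of 1.42 ± 0.15, and IFIT2 rose by 1.48 ± 0.15. OAS2, which senses double-stranded RNA, had 1.05, 0.986 and 1.49 CPM at 24 h, against 0.148, 0.247 and 0.143 CPM at 8 h, and 0.806, 0.603 and 1.33 CPM in DMSO, a rise of 2.70 ± 0.41. Library C at 24 h was the highest for all of these. The median of the list over DMSO was 0.25 at 24 h and -0.32 at 8 h. Of 19 antigen presentation genes 3 were higher and 3 lower, shares of 15.8% each that lie near those of all genes (16.6% and 18.3%). The higher were 1 without 24 h library B or 8 h library B and 0 without 24 h library C or 8 h library C. The lower included the transporter TAP2 at -0.29 ± 0.06 and the loading factor TAPBP at -0.21 ± 0.05, which did not pass under library totals (-0.08, adjusted p = 0.17) or with a smooth trend of fold change on abundance removed (-0.1046, adjusted p = 0.075).

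Actin cytoskeleton genes were lower in 17 of 22 and higher in 2 (median -0.33). ACTB, the cytoplasmic beta actin, had 6794, 6481 and 6785 CPM at 24 h, against 10803, 10200.1 and 10834 CPM at 8 h, and 6406, 6829.8 and 6508 CPM in DMSO, a change of -0.67 ± 0.05 (adjusted p = 1.38e-09). ACTG1 fell by 0.55 ± 0.05 and TAGLN2, an actin bundler, by 0.61 ± 0.05. GAPDH had 2973, 3265 and 3076 CPM at 24 h, against 3238, 3076 and 3235 CPM at 8 h, overlapping between the times, and did not pass (-0.04 ± 0.06). When a smooth trend of fold change with abundance was removed, an alternative added after the data were seen, GAPDH was higher by 0.16 with an adjusted p of 0.006999. YAP targets rose in 7 of 17 and fell in 4, 2 without 24 h library B or without 8 h library B or C. The shares were 41.2% and 23.5%, against 16.6% and 18.3% of all genes. The list's median log2 fold change was 0.01, and -0.003 with the size factors of DESeq2 or of the authors. Over DMSO the median was -0.12 at 24 h and -0.33 at 8 h. ANKRD1 (chromosome 10, 90912096 to 90921276), a nuclear ankyrin protein induced by stretch, had 8.69, 9.49 and 10.8 CPM at 24 h, against 2.31, 2.47 and 2.57 CPM at 8 h, a rise of 1.99 ± 0.10, and the kinases NUAK2 and LATS2 rose by 0.59 ± 0.08 and 0.48 ± 0.07.

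Of 19 matrix proteases and inhibitors 7 rose, 4 without 24 h library C or 8 h library C, and 3 fell. SERPINE2 and TIMP2, inhibitors of proteases, rose by 0.35 ± 0.09 and 0.22 ± 0.05. Of 20 genes of epithelial-mesenchymal transition 6 rose and 4 fell. SNAI1, the Snail repressor, had 5.201, 4.68 and 5.23 CPM at 24 h, against 2.34, 1.76 and 2.03 CPM at 8 h, a rise of 1.30 ± 0.19, vimentin (VIM) rose by 0.44 ± 0.07 and the junction protein CLDN1 by 0.28 ± 0.05. Of 18 genes of TGF-beta and BMP signalling 7 rose and 5 fell, and the inhibitors of differentiation among them went apart: ID2 rose by 0.74 ± 0.07, and ID1 and ID3 fell by 0.44 ± 0.06 and 0.43 ± 0.07. In the Notch pathway 4 of 14 rose, 2 without 24 h library A, and 3 fell. The ligand DLL4 had 1.503, 1.63 and 1.53 CPM at 24 h, against 0.444, 0.371 and 0.285 CPM at 8 h, a rise of 2.06 ± 0.29, while the ligand JAG2 fell by 0.81 ± 0.06 and the target HES4 by 0.59 ± 0.07.

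Of 22 glycolytic genes 14 fell and 2 rose, 1 without 24 h library A or without 8 h library C. PFKP, a phosphofructokinase, had 165, 166 and 163 CPM at 24 h, against 258, 259.8 and 266 CPM at 8 h, a fall of 0.67 ± 0.04, and GPI fell by 0.43 ± 0.05. Among 20 hypoxia-inducible genes 8 rose and 3 fell, with adrenomedullin (ADM) at 0.84 ± 0.07 and lysyl oxidase (LOX) at 0.68 ± 0.08. For NRF2 genes of glutathione and NADPH supply, 10 of 19 fell and 1 rose, 2 without 8 h library A. GCLM, the modifier subunit of glutathione synthesis, had 59.3, 63.1 and 62.7 CPM at 24 h, against 92.4, 94.9 and 99.3 CPM at 8 h, a fall of 0.63 ± 0.05, and the transketolase TKT fell by 0.45 ± 0.05.

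All 13 messages of the mitochondrial genome fell (median -0.55). MT-CO2, a subunit of cytochrome oxidase, had 7693, 5079.7 and 6908 CPM at 24 h, against 10989.5, 9251 and 10599.8 CPM at 8 h, and 4282, 4348 and 4476 CPM in DMSO, a change of -0.65 ± 0.11. Library B was the lowest of the 24 h libraries for the summed level, at 40727 CPM, against 62270 and 54774 CPM in A and C, and 73653 to 82934 CPM at 8 h. Of 35 nuclear subunits of the respiratory chain 13 fell and 1 rose, 0 without 24 h library A or C or without 8 h library B. Other scalings, filters or fits gave 7 to 13 falls and 0 to 7 rises. Proteasome subunits fell in 19 of 28 with none higher (median -0.19), a count that was 11 under library totals and 11 with the abundance trend removed. PSMD11, a lid subunit, had 112, 105 and 111 CPM at 24 h, against 168, 159 and 158 CPM at 8 h, a fall of 0.56 ± 0.05. Factors of ribosome biogenesis were lower in 15 of 29 and higher in 1, or 2 without 24 h library A, with nucleolin (NCL) at -0.42 ± 0.05 and NOP56 at -0.41 ± 0.05. Under other scalings, filters or fits 7 to 16 were lower and 1 to 4 higher. Ribosomal proteins themselves fell in 9 of 60, a share below the 18.3% of all genes and a count that single libraries decide: it was 1 without 24 h library A, 3 without 24 h library B, 1 without 8 h library A, 18 without 8 h library B and 4 without 8 h library C. Among 13 splicing factors of the SR family 9 fell and 2 rose. Under other scalings, filters or fits 3 to 9 fell. The median of -0.20 became -0.06 under library totals and -0.09 with the abundance trend removed. SRSF2 had 182, 176 and 194 CPM at 24 h, against 300.4, 258 and 264 CPM at 8 h, a fall of 0.57 ± 0.06, while the kinase of these factors, CLK1, rose by 0.42 ± 0.07. Of 20 lysosome genes 3 rose and 6 fell, and of 11 autophagy genes 7 rose and 2 fell, the rises of both together being 6 of 31 without 8 h library A, with MAP1LC3B, the LC3 coat of autophagosomes, at 0.61 ± 0.05.

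Of 17 clock genes 3 rose (17.65%) and 6 fell (35.3%), against 16.6% and 18.3% of all genes. The share that rose thus lay near that of all genes, and the list's median log2 fold change was 0.07. Leaving out 1 library gave 4 to 5 falls. ARNTL (BMAL1), the activator of the clock, had 20.95, 22.4 and 18.3 CPM at 24 h, against 11.7, 11.3 and 9.77 CPM at 8 h, a rise of 0.90 ± 0.08, and its repressor NR1D1 (REV-ERB alpha) rose by 0.71 ± 0.08, PER1 by 0.55 ± 0.08, while PER3 fell by 0.30 ± 0.06. Collection at 24 h and at 8 h also differs in the phase a clock would have reached, and the labels do not state the hour of dosing. Among long non-coding genes, ranked as the protein-coding ones were, the largest rises were AC108062.1 at 1.37 ± 0.11 and AC099329.2 at 0.94 ± 0.10, and the largest falls AC018629.1 at -1.21 ± 0.13 and AP001453.2 at -1.001 ± 0.15. TMPO-AS1, antisense to the lamin-binding gene TMPO, fell by 0.87 ± 0.13. The strand setting of the counting is not given in the sources used here, so antisense genes may hold reads of their partners.

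**Figure D5:**
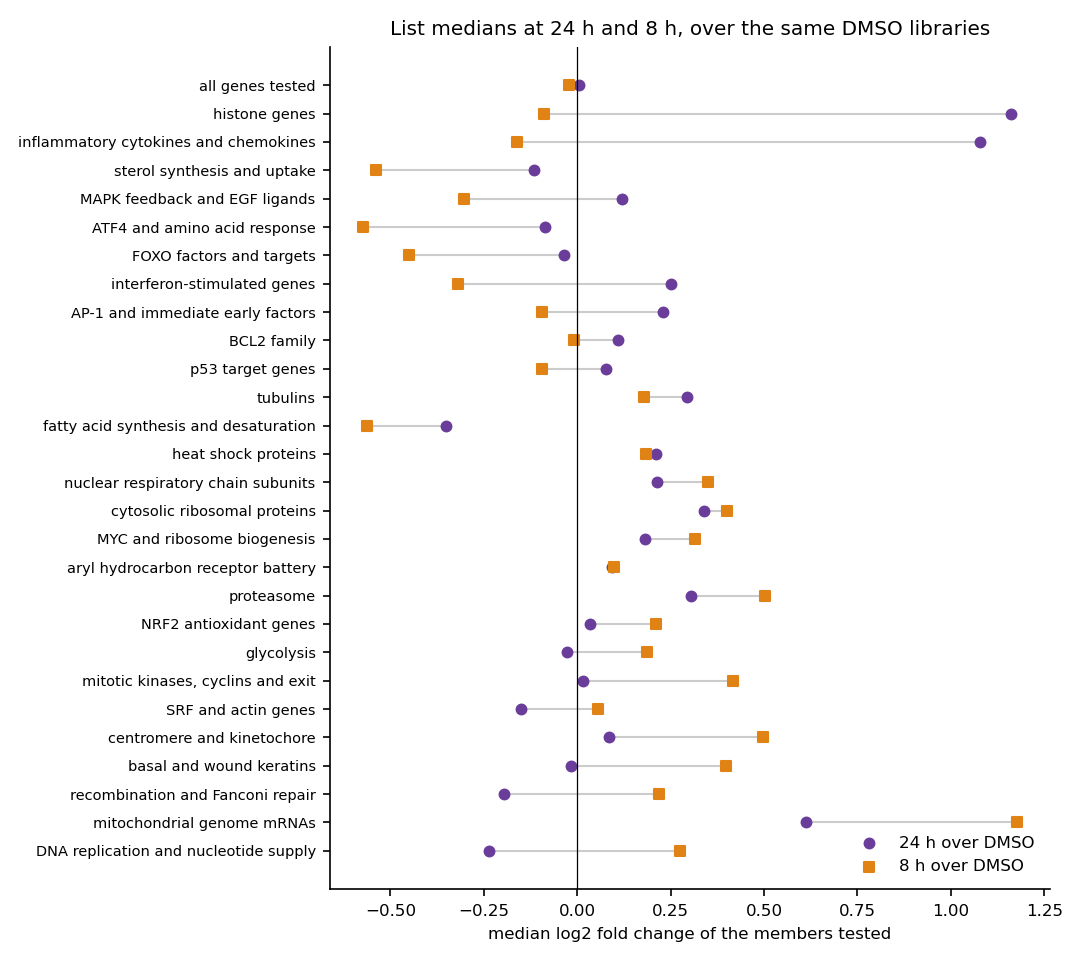
Median log2 fold change over DMSO of 27 gene lists and of all genes, with circles for 24 h over DMSO and squares for 8 h over DMSO, both against the same 3 DMSO libraries. For the sterol, ATF4 and FOXO lists the circles lie between the squares and 0, for replication the circle is below 0 at -0.24 and the square above it at 0.28, and for histone genes the circle (with the 6 factors) stands apart at 1.16 with the square at -0.09.

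Set beside DMSO, whose libraries enter both values, the lists differed in where the 24 h libraries stood. Mitotic genes had a median of 0.02 at 24 h and 0.42 at 8 h, and kinetochore genes of 0.09 and 0.50. Basal keratins had -0.02 at 24 h and 0.40 at 8 h. For these lists the 24 h median was near DMSO and the 8 h median apart from it. Replication genes had -0.24 at 24 h and 0.28 at 8 h, and repair genes -0.20 and 0.22, on either side of DMSO. Mitochondrial messages had 0.61 at 24 h and 1.18 at 8 h and the proteasome 0.30 and 0.50, above DMSO at both times. Cytokine genes had 1.08 at 24 h and -0.16 at 8 h, above DMSO at the later time. The all-gene medians were 0.01 at 24 h and -0.02 at 8 h.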

How the data were processed

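The deposited counts are whole-number counts per gene symbol that the authors made from the reads, in a table per library. A second deposited table holds a signal per gene that the authors obtained by dividing these counts by a size factor, and only the factors were used, as an alternative scaling. Per the submitters' processing notes fastp, HISAT2 2.0.5, DESeq2 and hg38 were used, with no roles named. The strand setting, annotation and counting program: not given in the sources used here. Per the labels' protocols RNA was column-purified, poly(A)-selected and primed with random hexamers. Of 58735 entries, 58708 matched GENCODE 29 symbols, and 27 in date form, at most 0.204% of a library, did not.

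Genes were kept by filterByExpr of edgeR 4.0.16 (R 4.3.3) with a minimum count of 10, in a fit of all 12 libraries that gave each group its mean, with TMM factors and 8 residual degrees of freedom. The quasi-likelihood test of 24 h minus 8 h was two-sided, with Benjamini-Hochberg adjustment over 17780 genes and a threshold of 0.05. The SE was taken as the absolute log2 fold change over the root of its F statistic. The same test was checked on simulated data. Single genes follow a rule: the 12 largest rises and falls and the 4 largest among non-coding genes (at least 5 CPM, no overlap), up to 4 members per list by adjusted p, and a fixed set. Not all genes it gives are described. Members and the 53 lists (1261 genes, 1163 tested) were chosen with earlier results of these data known. Of 17 alternatives 15 were planned. DESeq2 1.42.0 served as another test. Leaving out each library, other scalings and filters, the 6 docetaxel libraries alone and a replicate block were among them. The main fit did not pair the libraries by letter, and promoters and their motifs were read from RefSeq.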

Additional observations from a re-analysis of the deposited data

How the results depend on the processing

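With library totals as the scaling, 5392 genes were higher and 1655 lower, with 1566 and 225 changed by at least 1.5-fold and 672 and 56 by at least 2-fold, and 11 proteasome genes were lower. With at least 50 counts, 197 and 44 genes changed by at least 2-fold and 5 cytokine genes were higher. With a smooth trend of fold change on abundance removed, an alternative added after seeing the data, 280 genes were higher by at least 2-fold, 11 proteasome genes were lower and GAPDH reversed to 0.1625. Leaving out 1 library gave 2345 to 2686 higher and 2829 to 3119 lower genes. The other runs gave 2607 to 3042 higher and 2866 to 3488 lower, among them the replicate block with 3001 and 3368. Libraries of the same letter did not deviate together (correlations of -0.0601, 0.0136 and -0.0039), and unlike letters gave -0.0751 to 0.0769. These values show no pairing by letter, but 3 libraries per group cannot exclude one.

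Of the counts of list members over all lists and alternatives, 1636 stayed within 1.5 times and 164 moved, 48 of these under library totals and 20 with the abundance trend removed. For the named genes, 4317 values kept their direction and side of the threshold, 78 no longer passed, 26 newly passed and 1 reversed. The median of 7 lists changed sign under library totals, all with medians near 0. The counts of the sterol, ATF4, replication, kinetochore, mitotic, histone, MAPK feedback, interferon, actin, FOXO and keratin lists, in the direction most of their members took, stayed within 1.5 times when any single library was left out. Depth limits the low genes: below 1 CPM 10.0% were higher and 1.70% lower. Without a vehicle at each hour, docetaxel and time in culture cannot be told apart.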

Other observations

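Between the first and the last tested histone gene of the cluster on chromosome 6 (26020490 to 27893843 on GRCh38), 24 other genes were tested, of which 10 were higher at 24 h than at 8 h and 3 lower by edgeR's quasi-likelihood test, with a median log2 fold change of 0.18. Over all genes tested 16.6% were higher and 18.3% lower. This window was chosen after the values were seen. Some of these other genes lie on histone genes. The antisense gene AL353759.1 (26160765 to 26172802), which rose by 1.04, overlaps HIST1H2BD (26158146 to 26171349). With the strand setting not given, such genes may hold histone reads, which was not tested. AL031777.3 averaged 2.28 ± 0.4897 CPM at 24 h and 0.343 ± 0.1124 CPM at 8 h (SD, n = 3 each), and AL031777.1, a processed pseudogene, 1.37 and 0.144 CPM, and AL021807.1, a non-coding gene, 2.61 and 0.808 CPM. The butyrophilin genes of the same window, BTN3A2, BTN2A2, BTN3A1 and BTN3A3, did not pass, while BTN2A1 rose by 0.18.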
